A study of Mus musculus with 3 samples.

Results

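Potassium channel genes were taken as all genes whose name on the array starts with Kcn, and 87 of the 28090 gene names on the array met this rule, with 129 probes between them. Each was read by its brightest probe. Of the 87 genes, 49 were well above background and 38 were not. The members were chosen by name, and spot brightness set which probe was read and which genes counted as above background. The family was taken up with its ratios already known, so its changes are given as a description beside the same values for all genes.

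The arrays compared whole ovaries of 10-week-old C57Bl/6J female mice, collected 3.5 days post copulation and at ZT12, when the lights go off. The cKO mice carried loxP-flanked alleles of the clock gene Bmal1 (Bmal1 fx/fx) and a Cre recombinase transgene driven by the promoter of sf-1, a factor of steroid-producing cells. The control mice carried the same Bmal1 fx/fx alleles without Cre. Each of 3 two-channel arrays held RNA pooled from 3 cKO ovaries in cy3 (green) and from 3 control ovaries in Cy5 (red), so 9 animals stood behind each genotype and each array is 1 replicate (n = 3). The series asks whether BMAL1 lost from peripheral organs of the reproductive axis impairs female fertility. All ratios are log2 of cKO over control, so that 1 unit is a doubling, and positive values mean a higher level in cKO ovaries. Dyes were not swapped, so an effect of the dye and an effect of the genotype cannot be told apart. The sf-1 promoter acts in several cell types of the ovary and outside it, and Cre in the other cells of the ovary is not described in the labels.

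Potassium channels let potassium leave the cell and so set the resting voltage and end electrical and calcium signals. Pore-forming alpha subunits open on depolarisation (Kv channels), on calcium or sodium, at rest and with inward rectification (Kir), or as background leak (tandem-pore K2P channels), while auxiliary subunits change their gating and trafficking. In ovarian steroidogenic cells and vascular smooth muscle, potassium channels are known to shape membrane voltage and calcium entry. BMAL1 with CLOCK binds the E-box CACGTG, the ROR and D-box factors act downstream of it, and SF-1 binds CAAGGTCA.

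Kcnmb4 had the highest mean ratio of the family, Kcnj16 the next highest and Kcna5 one of the lowest. Kcnn4 and Kcne4 have windows that hold an E-box. The promoters of these 5 above-background genes are shown. Each is the run of 250 bases before a RefSeq transcription start of build GRCm38.p6, 5′ to 3′ on the gene's strand, and capitals mark a match to CACGTG.
Kcnmb4 chr10:116473524-116473773 (- strand): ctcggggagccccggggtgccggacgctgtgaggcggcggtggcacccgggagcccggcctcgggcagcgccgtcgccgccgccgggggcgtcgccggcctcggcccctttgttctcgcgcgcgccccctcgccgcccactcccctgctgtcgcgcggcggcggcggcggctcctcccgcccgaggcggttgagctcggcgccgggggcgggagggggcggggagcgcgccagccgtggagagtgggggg
Kcna5 chr6:126535556-126535805 (- strand): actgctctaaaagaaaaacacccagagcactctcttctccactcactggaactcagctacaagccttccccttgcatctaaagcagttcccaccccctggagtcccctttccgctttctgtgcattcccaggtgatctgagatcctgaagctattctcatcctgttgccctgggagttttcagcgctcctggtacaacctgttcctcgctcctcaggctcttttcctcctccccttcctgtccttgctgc
Kcnj16 chr11:111019335-111019584 (+ strand): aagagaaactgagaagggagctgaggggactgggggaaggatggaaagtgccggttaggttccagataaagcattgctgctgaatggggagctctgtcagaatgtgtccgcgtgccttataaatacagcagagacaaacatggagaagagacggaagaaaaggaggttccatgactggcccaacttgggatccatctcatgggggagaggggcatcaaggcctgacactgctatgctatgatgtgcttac
Kcnn4 chr7:24370013-24370262 (+ strand): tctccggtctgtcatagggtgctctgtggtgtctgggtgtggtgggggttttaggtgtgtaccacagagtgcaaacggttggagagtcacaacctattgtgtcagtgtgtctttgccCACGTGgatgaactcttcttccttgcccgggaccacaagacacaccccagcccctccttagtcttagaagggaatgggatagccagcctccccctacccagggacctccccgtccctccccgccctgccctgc
Kcne4 chr1:78816661-78816910 (+ strand): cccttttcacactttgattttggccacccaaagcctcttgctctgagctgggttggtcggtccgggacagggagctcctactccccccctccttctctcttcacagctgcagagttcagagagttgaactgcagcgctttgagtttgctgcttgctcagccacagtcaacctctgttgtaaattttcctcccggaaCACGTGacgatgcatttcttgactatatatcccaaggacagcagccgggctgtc
Kcnj16 has further starts, and the start shown is one of those in the table. RefSeq promoter windows, from 250 bases before to 50 after a start, were found for 64 of the 87 genes, 38 of them above background, in 89 windows. Motifs were searched on both strands of the windows, and no member window had matches to different motifs that overlapped. The E-box CACGTG was in 7 of the 89 windows (7.87%), against 7.15% of all 32851 windows. The related letters CACGTT were in 3.37% of member windows and 4.68% of all windows. The SF-1 letters CAAGGTCA were in 1.12% of member windows and 1.56% of all windows. The D-box letters TTATGTAA were in 0 member windows and 0.938% of all windows. The windows of Kcnmb4, Kcna5 and Kcnj16 held none of these letter runs, which says only that they are not in these windows. The Kcnmb4 stretch shown is 83.6% G and C, against a median of 52.4% over the same stretch of all windows. The above-background members with an E-box in a window were Kcnab1, Kcne4, Kcnk5 and Kcnn4, Kcne3 held CACGTT, and Kcnf1 held CAAGGTCA. These 6 genes, picked by their letters, had mean log2 ratios between -0.03 and 0.47, and none passed the test.

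The arrays differed from each other. Over the 17885 genes tested, the log2 ratios of arrays 1 and 2 had r = 0.493, those of arrays 1 and 3 had r = 0.0989 and those of arrays 2 and 3 had r = -0.162, across genes that share dyes and probes. Array 1 was on one slide and arrays 2 and 3 were on the other. Between 62.9% and 69.1% of spots were above background in a channel. The pools also differed in marker levels, and markers of luteal, granulosa and oocyte cells were all above background. The 10 smooth muscle markers, all above background, had median ratios of 0.19, 0.89 and -1.17 on arrays 1, 2 and 3, with summed signals of 79294 to 162169 in cKO pools and 73703 to 168893 in control pools. The 8 macrophage markers on the array, all above background, had median ratios of 0.73, 0.91 and -0.22. Their summed signals, which weigh bright markers most, were 83642 to 169694 in cKO pools and 35775 to 63758 in control pools. On array 3 only Lyz2 of the 8 was higher in cKO, at 0.58, and Mrc1 was lower on all 3 arrays. The part of these markers in the ratios of the potassium channel genes was not tested. The 7 surface epithelium markers had median ratios of 1.20, -0.06 and -0.42. The targeted gene, listed as Arntl, had ratios of 0.26, 0.10 and -0.28 (0.03 ± 0.28, SD, n = 3), and whether its probe lies in the deleted part is not given in the sources used here, so it does not check the labels. Star, the cholesterol carrier of steroid synthesis, had a mean ratio of -4.09 ± 0.12 (SD, n = 3).

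Between cKO and control ovaries, 1 of the 49 potassium channel genes above background passed the test, Kcnmb4, which was higher in cKO ovaries. Over all 17885 genes tested, 28 were called higher (0.157%) and 26 were called lower (0.145%), by limma with Benjamini-Hochberg adjustment at a threshold of 0.05, and 0 of the 49 were called lower. At an unadjusted p under 0.05, 2 of the 49 were higher (Kcnmb4 and Kcnj16), against 2.96% of all genes, and 4 were lower (Kcnk3, Kcna5, Kcng2 and Kcne1), against 3.02% of all genes. The p-values rest on the spread of the ratio over 3 arrays, each pairing a cKO pool with a control pool. They therefore do not measure the spread of pools within a genotype. Limma also draws the spread of the ratio toward the one shared by all genes. In bulk ovary, fewer cells of a type and less RNA per cell cannot be told apart. Of the 49, 8 were higher on all 3 arrays, against 11.5% of all genes tested, and 7 were lower on all 3, against 12.6% of all genes. Mean log2 ratios lay between -1.92 and 2.83. Their median was -0.01, against -0.02 over all genes tested, and 42 of the 49 (85.7%) were within 0.5 of zero, against 89.1% of all genes. A mean beyond 1 in either direction was found for Kcnmb4, Kcnk3 and Kcna5, 6.12% of the 49 and 2.56% of all genes.

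**Figure D1:**
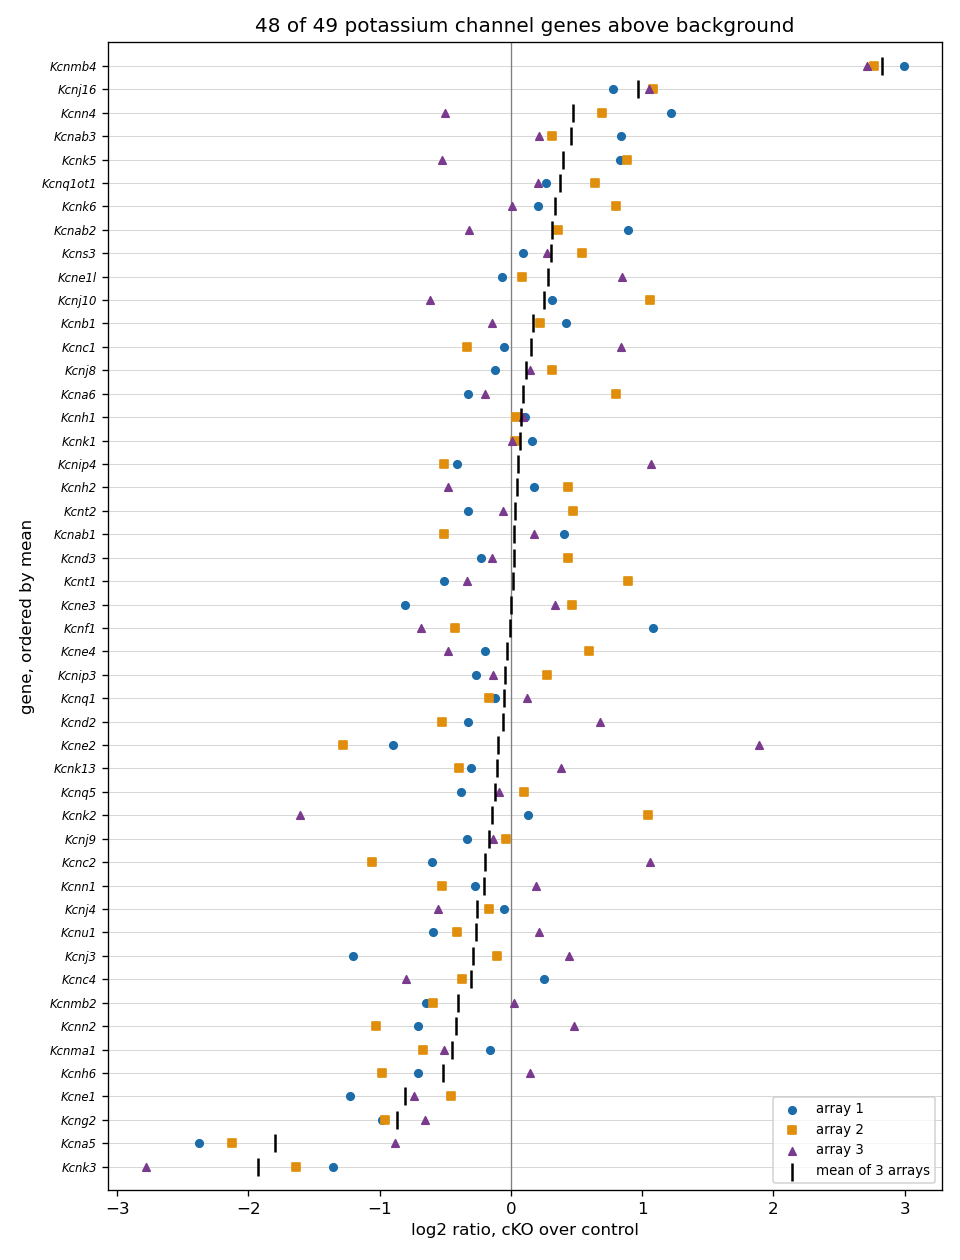
Log2 ratio of cKO over control on each array (symbols) and the mean of 3 arrays (black bar) for 48 of the 49 potassium channel genes above background, ordered by mean. Kcnmb4 is highest on every array at 2.71 to 3.00, and Kcnk3 and Kcna5 are lowest on average.

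Kcnmb4 encodes the beta-4 subunit, a membrane partner of the large-conductance calcium-activated BK channel that slows its gating. Its processed signal, a background-corrected and dye-normalised spot brightness, was 12094, 5380 and 6976 in cKO pools on arrays 1, 2 and 3, against 1516, 789.8 and 1065 in control pools. The lowest cKO pool was above the highest control pool. The share of all genes tested whose pools separate in this way, as those of some members below do, is not given here. The log2 ratios of Kcnmb4 were 3.00, 2.77 and 2.71, a mean of 2.83 ± 0.15 (SD, n = 3), 7.09-fold higher in cKO, with an adjusted p of 0.0174 in limma. It ranked 13 by size among the 28 genes called higher. The mean was 2.74 within the slide that held arrays 2 and 3 and 2.88 without array 3, and both passed the test. The call was lost when arrays were median-centred after normexp (adjusted p = 0.0584), scaled to a common spread (0.0672) or tested with all dim probes kept (0.247), with the ratio between 2.83 and 3.06. The array held 1 probe for this gene. Beta-4 is best known from neurons, and 4 of the 9 nerve and glia markers were above background, while Snap25, Nefl, Nefm and Th were among those that were not. Those 4 had median ratios of -0.22, -0.08 and -0.01 on arrays 1, 2 and 3, and their summed signals were 1775 to 2629 in cKO pools and 2365 to 3157 in control pools. One of the 4, Stmn2, had ratios of 3.24, 0.69 and 1.24, and its part in the Kcnmb4 ratio was not tested.

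No other BK gene passed the test. Kcnma1, the pore of the BK channel that beta-4 joins, had processed signals of 93.3, 81.2 and 156 in cKO pools and 104, 129 and 222 in control pools. Its ratios were -0.16, -0.67 and -0.51, a mean of -0.45 ± 0.26 (limma adjusted p = 1.00, SD, n = 3), lower on all 3 arrays without passing the test. With normexp and loess the mean was -0.19. Kcnmb2, the beta-2 subunit that gives BK channels inactivation, had ratios of -0.65, -0.59 and 0.02, and its mean of -0.41 was -0.14 with normexp and loess. Kcnmb1, the beta subunit of smooth muscle, and Kcnmb3 were not above background on all arrays of either genotype, with ratios of 0.66, 1.71 and -1.29 for Kcnmb1 and 0.54, 0.31 and -0.26 for Kcnmb3. Among the small-conductance and intermediate calcium-activated genes, the 3 above background, Kcnn1, Kcnn2 and Kcnn4, all changed sign between arrays. Over the 7 calcium- and sodium-activated alpha subunits above background, of 8 on the array, the median of the means was -0.20, and 0 were called.

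**Figure D2:**
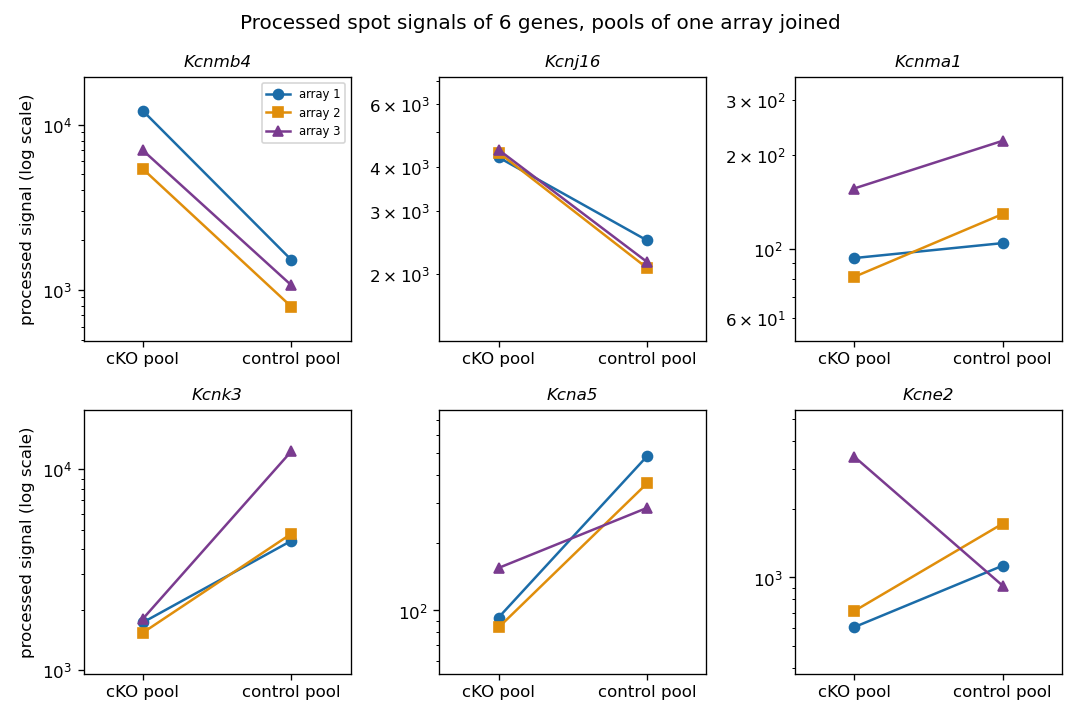
Processed signal on a log scale in the cKO pool (left) and the control pool (right) of each array for 6 genes. Lines join the pools of one array, and scales differ between genes, whose probe levels are not comparable. Kcnmb4 and Kcnj16 are higher and Kcnma1, Kcnk3 and Kcna5 lower in every cKO pool than in the control pool on the same array, while Kcne2 turns over on array 3.

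Inward rectifiers above background were 6 of 14 on the array, and none was called. Kcnj16 encodes Kir5.1, which forms channels with Kir4.1 (Kcnj10) that respond to pH. Its processed signal was 4256, 4392 and 4471 in cKO pools, against 2485, 2078 and 2161 in control pools. Every cKO pool was above every control pool. The ratios were 0.78, 1.08 and 1.05, a mean of 0.97 ± 0.17 (SD, n = 3), with a limma adjusted p of 0.279. Without array 3 the mean was 0.93. Its other 2 probes, which share runs of at most 6 bases with the first, gave means of 0.96 and 1.03. Its partner Kcnj10 had 0.32, 1.06 and -0.62. Kcnj8, the pore of the KATP channel of vessels, had processed signals of 2987 to 3148 in cKO pools and 2523 to 3431 in control pools, and its mean ratio was 0.11 ± 0.22. Kcnj4, a classical inward rectifier, and Kcnj9, a G protein-gated one, were lower on all 3 arrays without passing the test, at -0.26 ± 0.26 for Kcnj4 and -0.17 ± 0.15 for Kcnj9, and with normexp and loess at -0.16 for Kcnj4 and -0.05 for Kcnj9. Kcnj16 lies next to Kcnj2 on chromosome 11, and Kcnj2 was not above background.

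Tandem-pore channels above background were 6 of 11 on the array. Kcnk3 encodes TASK-1, an acid-sensitive leak channel that is also known from adrenal steroid-producing cells. Its processed signal was 1725, 1534 and 1800 in cKO pools and 4407, 4781 and 12337 in control pools, so the groups did not overlap and the control pool of array 3 stood highest. The ratios were -1.35, -1.64 and -2.78, a mean of -1.92 ± 0.75 (SD, n = 3), 3.79-fold lower in cKO, with a limma adjusted p of 0.136. A second probe gave -1.18, -1.88 and -3.68. With the slide as a block the mean was -1.78 and the adjusted p 0.00408, within the slide of arrays 2 and 3 the values were -2.21 and 0.00226, and without array 3 they were -1.50 and 0.0993. These fits leave few arrays per estimate, so their adjusted p-values lean on the spread shared by all genes. The luteal markers, all 7 above background, had median ratios of -0.33, -0.41 and -1.08 on the 3 arrays. Their summed signals were 331339 to 389212 in cKO pools and 419531 to 657299 in control pools. The 7 include Star, the only one called. Their means ran from -4.09 for Star to 0.96 for Ptgfr, the only one with a positive mean. The part of the luteal markers in the Kcnk3 ratio was not tested.

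Other tandem-pore genes stayed closer to zero or varied. Kcnk2, the TREK-1 mechanosensitive leak channel, had 0.13, 1.04 and -1.61, turning sign on array 3, where its processed signal was 135 in the cKO pool and 410.0 in the control pool. The medians of the smooth muscle markers given above were higher, higher and lower in cKO, a pattern that 17.9% of all genes tested had. On array 1 Smtn, Lmod1 and Myocd were lower in cKO (-0.01, -0.09 and -0.01) and the other markers of that list higher. The part of these markers in the Kcnk2 ratios was not tested. The weak leak channels TWIK-1 (Kcnk1) and TWIK-2 (Kcnk6) had means of 0.07 ± 0.08 for Kcnk1 and 0.34 ± 0.41 for Kcnk6, each higher on all 3 arrays without passing the test.

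Voltage-gated alpha subunits made up the largest group, with 17 of 37 above background and a median mean ratio of -0.06. Kcna5 encodes Kv1.5, a delayed rectifier known from vascular smooth muscle and heart. Its processed signal was 93.0, 84.0 and 154 in cKO pools and 483, 366 and 285 in control pools, and the groups did not overlap. The ratios were -2.38, -2.12 and -0.88, a mean of -1.79 ± 0.80 (SD, n = 3), 3.47-fold lower in cKO, with a limma adjusted p of 0.183. With the slide as a block the mean was -1.94 and the adjusted p 0.000899, within the slide of arrays 2 and 3 they were -1.50 and 0.241, and without array 3 they were -2.25 and 0.0580. The adjusted p-values of these fits, too, lean on the spread shared by all genes. With normexp and loess the mean was -1.10. The smooth muscle markers had the median ratios given above, and their part in the Kcna5 ratio was not tested. On chromosome 6 Kcna5 lies next to Kcna1, which was not above background, and Kcna6, with a mean of 0.09, lies on the other side of Kcna1.

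Other voltage-gated genes with one sign on all 3 arrays had smaller values. Kcng2, a silent subunit that joins other Kv pores, had -0.98, -0.96 and -0.65, a mean of -0.87 ± 0.19 (limma adjusted p = 0.352, n = 3), and -0.42 with normexp and loess. Kcns3, another silent subunit, had 0.30 ± 0.23, and Kcnh1, an ether-a-go-go channel, had 0.08 ± 0.04. A second Kcnh1 probe changed sign between arrays, at 0.26, -0.09 and -0.21. Kcnc2, a fast Kv3 channel, had -0.60, -1.06 and 1.06, and Kcnf1, a silent subunit, had 1.09, -0.42 and -0.68. These were among the most variable members, and neither passed the test. The Kcnc2 spots were dim, with 23.0 to 92.2 in cKO pools and 44.2 to 70.3 in control pools. The SD of Kcnc2 over arrays was 1.12, and 0.25 with normexp and loess.

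Auxiliary subunits above background were 10 of 12, and none was called. Kcne1, the partner of Kcnq1 in the slow cardiac current, had -1.22, -0.46 and -0.74, a mean of -0.81 ± 0.39, but its spots were dim, with 21.6 to 30.0 in cKO pools and 41.3 to 50.4 in control pools, and its mean was -0.06 with normexp and loess. Kcnab3, a cytoplasmic beta subunit, had 0.84, 0.31 and 0.22 with a limma adjusted p of 1.00, and its processed signal was 7833, 5019 and 6099 in cKO pools against 4373, 4045 and 5254 in control pools. Its mean of 0.46 ± 0.34 was 0.04 with normexp and loess. Kcne2, another KCNE partner, had the largest spread of the family, with ratios of -0.90, -1.28 and 1.89 (SD 1.73). Its signal was 604, 711 and 3410 in cKO pools and 1126, 1725 and 920.4 in control pools, so the high value was 1 cKO pool. The non-coding RNA Kcnq1ot1, made from the imprinted Kcnq1 locus, had 0.27, 0.64 and 0.21, a mean of 0.37 ± 0.23, and its other probes averaged 0.25 and -0.03. With normexp and loess its mean was 0.20.

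Several probes of one gene did not always give one direction. Of 14 members with more than 1 probe above background, 9 had probes whose means shared a sign. For 8 members, not all of them among the 9, the signs of the probes were the same on every array. The replicate spots of one Kcnn2 probe, 10 on each array, gave -0.70 ± 0.06, -1.03 ± 0.09 and 0.48 ± 0.07, while a second probe of that gene gave -0.78, -1.11 and -0.60. The SD here is over spots of one hybridisation and covers technical error only. The 2 probes had opposite signs on array 3. A second Kcnc2 probe gave -3.31, -0.76 and 0.74.

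**Figure D3:**
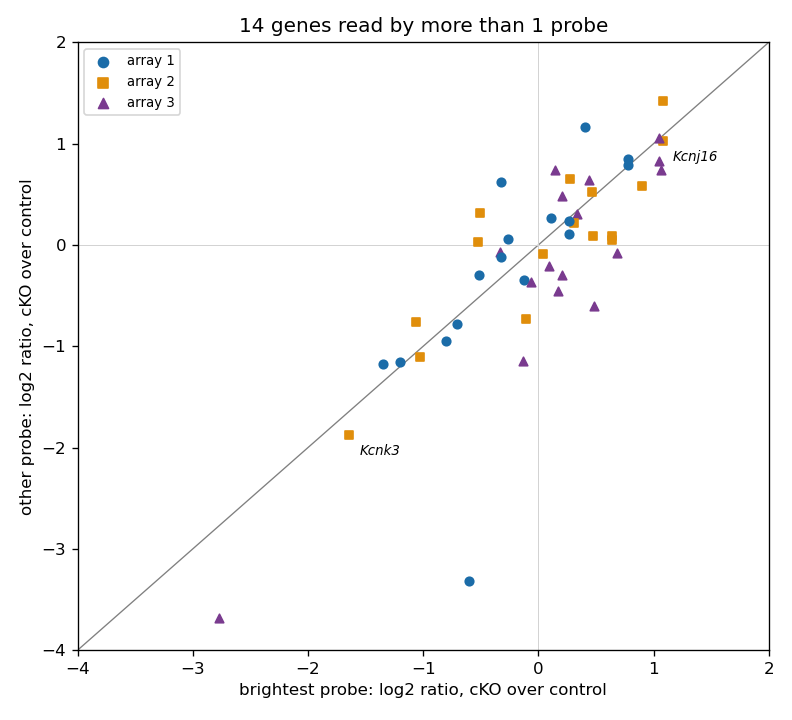
Log2 ratio of cKO over control of each further probe against that of the brightest probe of the same gene, by array, for the 14 potassium channel genes with more than 1 probe above background; the grey line marks equal values. The Kcnj16 probes lie near the line, the Kcnk3 probes are low on every array and differ most on array 3 (-2.78 and -3.68), and the point far below it on array 1 is a second Kcnc2 probe at -3.31.

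Array 3 ran against arrays 1 and 2 for many members, as for the array as a whole. For 21 of the 49 (42.9%), arrays 1 and 2 shared a sign that array 3 did not, against 43.0% of all genes tested. Kcne2, Kcnk2 and Kcnc2 had large values of this kind, those of Kcnc2 from the dim spots given above. Without array 3, 36 of the 49 had one sign on the arrays left, and Kcnmb4 was again the only member called. Over all genes tested, the parts of that share were 43.0% with array 3 opposite, 11.5% higher on all 3 arrays and 12.6% lower on all 3. The median SD over arrays was 0.42 for members and 0.42 for all genes.

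**Figure D4:**
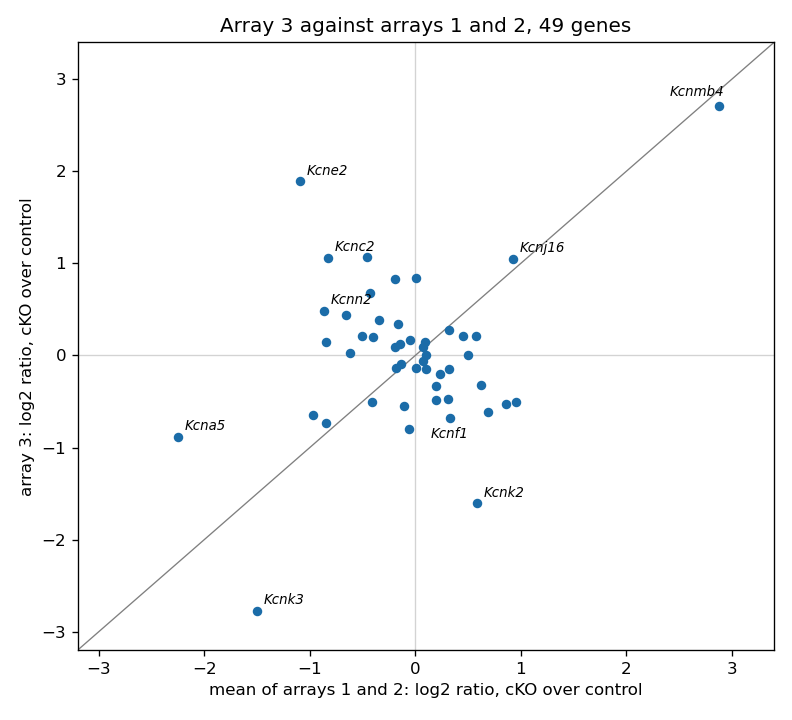
Log2 ratio of cKO over control on array 3 against the mean of arrays 1 and 2 for the 49 genes; the grey diagonal marks equal values. Kcnmb4 and Kcnj16 lie near the diagonal, Kcnk3 and Kcna5 are low on both axes, and Kcne2 and Kcnk2 lie in opposite corners.

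Of the 38 genes not above background, 31 were above it on no array in either channel and 7 on some. Their mean log2 ratios ran from -0.77 to 0.58, and 10 had a ratio of exactly 0 on all arrays, as the scanner software fills dim spots with stand-in values. The dimmest member counted as above background was Kcne1, with the signals and ratios given above. The brightest left outside were Kcnq3 and Kcnh4, with ratios of 0.99, -0.12 and -2.01 for Kcnq3.

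Other genes of potassium transport were read from a list of 40 pumps, cotransporters, HCN channels and channel partners, of which 39 were on the array and 30 were tested. None was called by limma (3 at an unadjusted p under 0.05, all lower), 4 were higher and 7 lower on all 3 arrays, and the median of the means was -0.04. Hcn3, a hyperpolarisation-activated channel, was lowest at -1.30 ± 0.45 with a limma adjusted p of 0.202, and Slc12a5, a potassium-chloride cotransporter, was highest at 0.57 ± 0.32. Of 18 voltage-gated calcium channel genes, 13 were tested and none was called by limma (1 at an unadjusted p under 0.05, Cacna1s). Among them Cacna1s was highest at 0.60 ± 0.15 and Cacna2d2 lowest at -0.33 ± 0.16, and Cacna1s had a mean of 0.17 with normexp and loess.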

How the data were processed

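RNA of whole ovaries was measured on 3 two-colour Agilent arrays, each a replicate of the within-spot ratio of a cKO pool and a control pool. Per the labels' protocols, ovaries were kept in RNAlater, RNA was extracted with an RNeasy kit and labelled with Agilent's linear amplification kit. In some genotype labels the digit behind the Cre name runs with the array, so arrays were grouped by title. Processed intensity values and log10 ratios of red over green were deposited by the authors. Per the file headers, Feature Extraction 9.1.3.1 subtracted local background, detrended, normalised dyes by a linear and LOWESS step and gave dim spots stand-in values, which limits ratios of dim genes. The deposited value table holds the same log10 ratios. Raw mean and background intensity values, deposited too, were used only in an alternative with an offset of 50.

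From these, log10 ratios were turned into log2 ratios of cKO over control. Outlier spots (13, 4 and 0) were dropped and replicate spots averaged. Each gene was read by its brightest probe, and a gene was kept when well above background on all arrays for cKO, or on all arrays for control. The 49 members kept were above background in both. Ratios were tested against 0 with limma 3.58.1 (R 4.3.3) over 17885 genes with Benjamini-Hochberg adjustment. The fit was also run on simulated ratios with independent normal errors and no slide or dye difference. That run checks the code and not the calls made here. The number of arrays, 3, limits the precision. All 87 names matched RefSeq symbols; probe coordinates were not used.

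Genes were named by a rule: those called, those of one sign on all arrays with the highest and lowest means, the most variable 4, all Kcnmb genes and Kcnma1, and the extremes of the lists of other transport and calcium channel genes. Kcnab1, Kcne3, Kcne4, Kcnh4, Kcnj2, Kcnj8, Kcnj10, Kcnk5, Kcnn1, Kcnn2, Kcnn4, Kcnq3, Kcna1 and Kcna6 were named after their values or sequences were seen. The members and lists were chosen with earlier results of these data known. Of the 49 members, 1 is counted but its own values are not reported here.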

Additional observations from a re-analysis of the deposited data

How the results depend on the processing

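The number of genes called, 54 as reported, was 1 with normexp and median centring (2789 at an unadjusted p under 0.05), 7 with arrays scaled to a common spread, 0 with dim probes kept (1844 unadjusted), 83 with an intensity trend in limma's eBayes, 227 with slide as a block, 118 on the slide of 2 arrays, and it ranged from 28 to 270 when each array was left out. Potassium channel genes called, 1 as reported, were 0, 0 and 0 under the median-centred, scaled and no-filter settings, 3 with the slide block and 2 on the slide of 2 arrays, and 1 to 3 when each array was left out. Members of one sign on all arrays, 15 as reported, were 20 to 36 when each array was left out, since fewer arrays must then match. The slide of 2 arrays and the fit without array 1 are the same data, which leaves 13 different alternatives. Kcnmb4 was called in 10 of them, Kcnk3 in 3, Kcna5 in 2 and Kcnj16 in 0, and none of these reversed. Calls with the slide block or with 2 arrays lean on the spread shared by all genes, since little spread per gene is left. Where a call was lost or gained the cause was not tested, except that fewer arrays or more dim genes entered the fit by construction.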
